A study of Mus musculus with 8 samples.

Results

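The genes of MHC class I and antigen presentation were examined in RNA-seq libraries of cultured mouse retinal astrocytes. The members were every gene of the table with a symbol starting with H2-, which gave 20 genes, and 20 genes taken by name: the class I light chain, the peptide transporters and loading factors, the interferon-inducible proteasome, the transactivators Nlrc5 and Ciita, Cd74 and ligands of the B7 family. This made 40 members among the 13575 genes of the table, and Cd86, which was also on the list, was not in the table used here. The study compared 4 libraries of Cyp1b1+/+ astrocytes, labelled wild type, with 4 libraries labelled Cyp1b1-/-, in which the gene of the cytochrome P450 enzyme Cyp1b1 should be deleted. The methods state that for each genotype the retinas of a single litter of 4-week-old mice of mixed sex were pooled, which the sex-linked genes below go against, and that endothelial cells were removed with CD31 beads. The methods describe a growth medium with recombinant murine interferon-γ, the main inducer of antigen presentation genes, for the astrocytes of both genotypes, so every value below is from cells kept with this cytokine and no library shows the unstimulated level. The strain entries of the labels differ between the genotypes, but they also vary among the libraries labelled Cyp1b1-/-. They may be mistyped, so they do not show whether the genotypes share a strain, and nothing below relies on them. Nothing says that the 4 replicates of a genotype came from separate cultures or animals, so the p-values measure only the spread between these libraries, which may be technical.

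MHC class I molecules show peptides from inside the cell to CD8 T cells. The proteasome cuts proteins into peptides, the transporter Tap1-Tap2 moves them into the endoplasmic reticulum, and a loading complex places them on a heavy chain bound to the light chain B2m. Interferon-γ acts in part through Irf1 and the transactivator Nlrc5 to raise these genes, exchanges proteasome subunits for the inducible forms Psmb8, Psmb9 and Psmb10, and through Ciita also switches on MHC class II genes in cells that usually lack them, astrocytes among them.

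The data were values normalized by the trimmed mean of M-values (TMM) and rounded to whole numbers, so the raw depth of single libraries is not known. The paper gives a mean number of reads for each genotype, which was similar in both. The values of a library summed to 19261729 to 19370850 in Cyp1b1+/+, against 19491502 to 20134745 for the label Cyp1b1-/-. Cyp1b1 itself, the targeted gene, had values of 749, 829, 856 and 882 in Cyp1b1+/+, against 1296, 1276, 1288 and 1368 for the label Cyp1b1-/-, which goes against the label if the deletion removes the counted exons. Xist, transcribed from the inactive X, lay at 21084 to 26863 in Cyp1b1+/+ and at 34 to 46 in the libraries labelled Cyp1b1-/-, and the Y-linked Ddx3y at 0 to 1 against 1230 to 1324. Neither group thus reads as a mixture of the sexes. Sex and genotype label therefore cannot be told apart in any comparison below, nor can litter and culture. The library labelled Cyp1b1-/- replicate 2 stood apart from the others of its label, with correlations (Pearson, log2 values) down to 0.962 within its label against 0.990 without it. Of 5 fibroblast markers 2 were in the table. Col1a1 was at 122121 in that library (1643 to 2381 in all others) and Col1a2 at 44444 (185 to 230 in all others), and neither passed the test. The same library set the upper ends of the ranges of Vim, Gja1, Notch3 and Pdgfrb given below for its label. Of the astrocyte markers, Gfap, Aqp4, Aldh1l1, S100b and Pdgfra were not in the table used here. The 4 that were gave 2 higher and 1 lower, where 26.8% of all genes were higher and 26.9% lower. Pax2 fell (28 to 39 against 0 to 1), Vim (74812 to 81133 against 99216 to 128380) and Gja1 (736 to 851 against 1180 to 3124) rose, and Slc1a3 did not pass the test (16 to 32 against 22 to 32). Of 17 microglia and macrophage markers 2 were in the table, Csf1r (32 to 37 against 7 to 15) and Cd68 (42 to 64 against 32 to 42), and both fell, while none of the 8 dendritic and B cell or the 6 T and NK cell markers were. Of 6 pericyte and smooth muscle markers 3 were in the table, of which Notch3 (180 to 222 against 53 to 148) and Pdgfrb (725 to 883 against 301 to 738) fell and Acta2 did not pass the test. The only endothelial marker of 7 in the table, Kdr, fell (191 to 228 against 156 to 175), and of the 5 Müller glia markers Sox9 and Glul were in the table and did not pass the test. The part of such cells in the results below was not tested. In bulk RNA, fewer cells of a type and less RNA per cell cannot be told apart.

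The promoters of class I genes are known for a block of an interferon response element and a κB site, and some are shown because most of the class I genes behind them fell together in the results that follow. Promoter windows of 300 bases (250 before to 50 after the start, RefSeq, GRCm38.p6) matched 30 of the 40 members. In all, 5 motifs were searched on both strands, in 2 rounds. The first round took GAAA, any 2 bases and GAAA (an interferon response form), TTCNNNGAA (the interferon-γ-activated site, GAS) and CCAAT. The second round added a shorter interferon form, GAANNGAAA, and the κB core GGGATTCCC, and these letters were chosen after the hits of the first round had been seen, so the member counts below are descriptions chosen in view of the data and support nothing. The longer interferon form was in 5 members (B2m, H2-T22, H2-T23, Erap1 and Psme1) and in 3.44% of all 32851 windows. The shorter form was in 8 members (H2-K1, H2-D1, H2-Q4, H2-Q6, H2-Q7, H2-Q10, H2-M3 and Psme1) and in 7.52% of windows. The κB core was in 4 members and 0.353% of windows, CCAAT in 22 members and 37.4% of windows, and GAS in 2 members and 8.30% of windows. A match is no evidence that a factor binds there, and class I genes are duplicates of one another, so their promoters are not separate examples.

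The following stretches of 150 bases begin 30 bases before the first base of the interferon form and run 5′ to 3′ on the strand of the gene, with matches to any of the 5 motifs in capitals. They are the 5 class I heavy chain genes with the highest values, then H2-T22, one of the pair of class I genes that fell most, and B2m.
H2-K1, chr17:34000318-34000467, minus strand: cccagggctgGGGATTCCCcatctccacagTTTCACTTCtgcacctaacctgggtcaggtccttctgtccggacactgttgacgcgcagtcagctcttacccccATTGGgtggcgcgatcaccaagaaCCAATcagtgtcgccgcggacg
H2-D1, chr17:35262914-35263063, plus strand: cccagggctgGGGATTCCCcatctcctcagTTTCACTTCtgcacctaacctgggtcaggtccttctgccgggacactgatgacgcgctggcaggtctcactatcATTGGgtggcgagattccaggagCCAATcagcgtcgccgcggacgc
H2-Q4, chr17:35379434-35379583, plus strand: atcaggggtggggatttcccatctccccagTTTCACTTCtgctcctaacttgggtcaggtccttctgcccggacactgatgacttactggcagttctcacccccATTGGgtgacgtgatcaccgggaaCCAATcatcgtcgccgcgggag
H2-Q6, chr17:35424668-35424817, plus strand: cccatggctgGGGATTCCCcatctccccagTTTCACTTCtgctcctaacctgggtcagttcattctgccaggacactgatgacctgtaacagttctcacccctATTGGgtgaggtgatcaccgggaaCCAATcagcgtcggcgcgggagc
H2-Q7, chr17:35439012-35439161, plus strand: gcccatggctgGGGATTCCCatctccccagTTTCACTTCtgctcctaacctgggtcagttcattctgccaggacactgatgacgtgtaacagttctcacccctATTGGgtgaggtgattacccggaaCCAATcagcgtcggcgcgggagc
H2-T22, chr17:36042814-36042963, minus strand: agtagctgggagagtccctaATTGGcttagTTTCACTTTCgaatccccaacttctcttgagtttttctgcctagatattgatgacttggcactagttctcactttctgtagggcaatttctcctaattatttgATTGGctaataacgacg
B2m, chr2:122147518-122147667, plus strand: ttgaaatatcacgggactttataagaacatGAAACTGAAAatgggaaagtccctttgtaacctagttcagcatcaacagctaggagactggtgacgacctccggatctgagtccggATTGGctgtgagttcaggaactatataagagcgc
In H2-K1, H2-D1, H2-Q6 and H2-Q7 the κB core began 19 to 20 bases before the interferon form, and both were found together in 11 of all windows. A first CCAAT box, in either orientation, began 73 to 74 bases after the interferon form and a second one 97 to 98 bases after it in those 4 genes and in H2-Q4. H2-Q4, H2-T22 and B2m had no match to the κB letters GGGATTCCC. Only these exact letters were searched, so κB sites of other letters would be missed, and no match does not mean no site. In the printed stretches, gggatttccc in H2-Q4 and gggaaagtccc in B2m resemble these letters but were not counted. The interferon form of H2-T22 and B2m was the longer one, at a first base of -191 and -139 from the start.

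Of the 40 members, 21 fell and 10 rose in the libraries labelled Cyp1b1-/- (limma, adjusted p under 0.05), and 9 did not pass the test. Over all genes tested, 26.9% were called lower and 26.8% higher, against 52.5% and 25% of the members. The median log2 fold change (libraries labelled Cyp1b1-/- minus Cyp1b1+/+, on log2 of the value plus 1) was -0.15 over the members and -0.00044 over all genes. The changes were small: a single member, Cd80, was called lower by more than 2-fold, as were 4.52% of all genes, and 0 members were called higher by more than 2-fold in limma (also 0 at an unadjusted p under 0.05), as were 2.6% of all genes. The 2 groups did not overlap for 20 of the 40 members, and for 49.3% of all genes, so that share was close to the background. By role, 11 of 13 class I chains and B2m and 6 of 8 transport and loading genes fell. The genes that rose included 4 of 5 of the interferon-inducible proteasome and both transactivators. Roles were partly reassigned after values were seen, that of Ciita among them. The pseudogenes H2-K2 (0.52) and H2-T-ps (-0.08), neither called, were left out of the class I chains. H2-T10 and H2-Q5, annotated as polymorphic pseudogenes and both called lower, were kept in. Without Cyp1b1+/+ replicate 2 the number of members that fell was 14 in place of 21, and over the 8 libraries left out in turn it was 14 to 21.

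**Figure D1:**
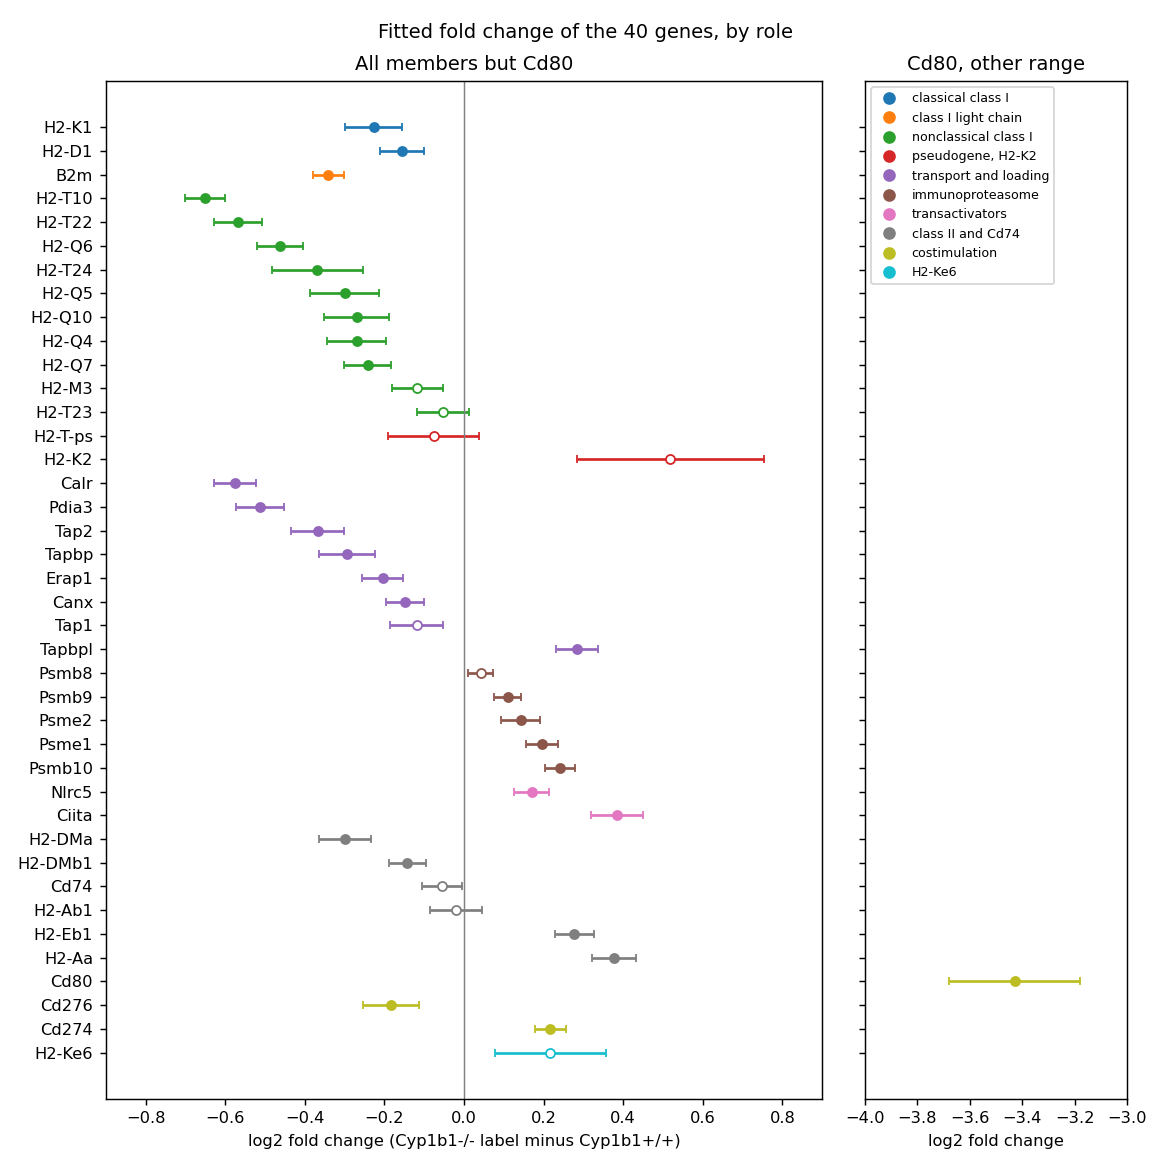
Fitted log2 fold change of each of the 40 members (points) with its standard error (bars), in rows grouped and coloured by role. Filled points passed the test at an adjusted p under 0.05, open points did not, and Cd80, at -3.43, has its own range of the axis on the right. The class I chains lie to the left of 0 and the proteasome genes and transactivators to the right. The pseudogenes H2-K2 and H2-T-ps have a role of their own, reassigned after values were seen.

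Class I heavy chains and their light chain were lower. Of the 13 genes, 11 (84.6%) fell, 2 did not pass the test (H2-M3 and H2-T23) and 0 rose (also 0 at an unadjusted p under 0.05). Over all genes 26.9% fell and 26.8% rose. B2m, the light chain that class I heavy chains need to reach the surface, lies on chromosome 2 (122147686 to 122153083) and so outside the H2 complex. Its values were 38198, 40828, 38407 and 38137 in Cyp1b1+/+, against 31202, 29649, 31109 and 30815 for the label Cyp1b1-/-. The groups did not overlap, and B2m fell by 21.1% (log2 fold change -0.34 ± 0.04 (SE), adjusted p = 4.21e-05). It kept this call in each of the 14 alternatives.

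The classical chains H2-K1 and H2-D1, which present peptides to CD8 T cells, fell by smaller amounts. H2-K1 (chromosome 17, 33996017 to 34000347) had values of 34493, 42659, 42589 and 41624 in Cyp1b1+/+, against 33968, 32261, 36580 and 34752 for the label Cyp1b1-/-. The groups overlapped through Cyp1b1+/+ replicate 1 alone, which lay among the libraries labelled Cyp1b1-/-, and the fitted log2 fold change was -0.23 ± 0.07 (adjusted p = 0.0222). H2-D1 (35262730 to 35267499) had 31591, 36275, 36567 and 36005 in Cyp1b1+/+, against 31657, 29681, 32604 and 31931 for the label Cyp1b1-/-. Here too Cyp1b1+/+ replicate 1 lay among the other group, and the log2 fold change was -0.16 ± 0.05 (adjusted p = 0.0342). Neither call was stable to leaving out a library: both were lost without Cyp1b1+/+ replicate 2, 3 or 4 and without replicate 1 labelled Cyp1b1-/-, and that of H2-D1 also without replicate 4 labelled Cyp1b1-/-, with adjusted p up to 0.068 for H2-K1 and 0.0956 for H2-D1.

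The nonclassical class I chains held the firmest falls of the complex, with 8 of 10 (80%) lower, against 26.9% of all genes. H2-T22 (36037128 to 36042747) and H2-T10 (36115876 to 36121465) are close relatives, whose products are recognised by a subset of γδ T cells. H2-T22 ranged from 6651 to 7564 in Cyp1b1+/+ and from 4278 to 5165 for the label Cyp1b1-/-, and fell by 32.5% (log2 fold change -0.57 ± 0.06, adjusted p = 2.27e-05). H2-T10 ranged from 822 to 917 and from 522 to 586, and fell by 36.3% (-0.65 ± 0.05, adjusted p = 2.96e-06). The groups were apart in both genes, and Cyp1b1+/+ replicate 1, the lowest library of its group in H2-K1 and H2-D1, was the highest of its group here.

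The genes of the Q region, 2 of which (H2-Q6 and H2-Q7) encode Qa-2, resembled H2-K1 in their spread across libraries. H2-Q6 had values of 12386 to 14357 in Cyp1b1+/+ against 9290 to 10763 for the label Cyp1b1-/-, with no overlap, and its log2 fold change was -0.46 ± 0.06 (adjusted p = 7.96e-05). H2-Q7 had 12027 to 14367 and 10953 to 12169, with Cyp1b1+/+ replicate 1 again inside the other group (-0.24, adjusted p = 0.00618). H2-Q4 (12650 to 15887 against 11589 to 13308) fell by 0.27 on the log2 scale, H2-Q5 (1519 to 2067 against 1459 to 1594) fell by 0.30, and H2-Q10 (254 to 313 against 218 to 255) fell by 0.27. H2-T24, of low value (67 to 89 against 61 to 64), fell by 0.37. The 2 that did not pass were H2-T23, the gene of Qa-1 that shows leader peptides of other class I chains to NK cells (1929 to 2373 against 1898 to 2215, log2 fold change -0.05, adjusted p = 0.514), and H2-M3, which presents formylated peptides (423 to 513 against 398 to 440, -0.12, adjusted p = 0.154). The calls of H2-Q10 and H2-T24 were lost without Cyp1b1+/+ replicate 2 or 3, and that of H2-Q10 also without replicate 4 labelled Cyp1b1-/-.

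Summed over the 12 heavy chain genes, the normalized values were 115839, 136073, 135904 and 134580 in Cyp1b1+/+, against 109255, 102712, 115095 and 110432 for the label Cyp1b1-/-. The sums did not overlap, and replicate 1 of Cyp1b1+/+ was closest to the other group. Per kilobase of exon the light chain B2m lay far above the heavy chains, at a mean level of 45224 in Cyp1b1+/+ against 13731 for H2-K1 and 13614 for H2-D1, whose order was not resolved. H2-Q6, at 6600 per kilobase, followed by H2-Q4, at 5759, came next. Reads may be shared with other genes. Of the stretches of 100 bases in the transcripts, 31.5% in H2-T22, 28.1% in H2-T10 and 12% to 14.1% in H2-Q4 to H2-Q7 also occurred in another gene. This was 0.957% in H2-K1, 3.59% in H2-D1 and 0 in B2m. Most of the sharing was with genes outside the members in H2-T22 (24% with A930015D03Rik), H2-T10 (22.5% with BC023719) and H2-Q4 (11.8% with Gm11131). In H2-Q5, H2-Q6 and H2-Q7 it was mostly with other members. How reads split among the Q and T genes and these outside genes is thus uncertain. H2-T10 and H2-Q5 are annotated as polymorphic pseudogenes, which code for a protein in some mouse strains only. H2-K2, a transcribed pseudogene (17 to 31 against 31 to 50, adjusted p = 0.0875), and the pseudogene H2-T-ps (64 to 70 against 54 to 68, adjusted p = 0.599) did not pass the test. H2-Ke6, which by its symbol falls under the rule but encodes a steroid dehydrogenase, did not pass it either (adjusted p = 0.213), and 61.6% of its 100-base stretches were shared with another annotated gene.

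**Figure D2:**
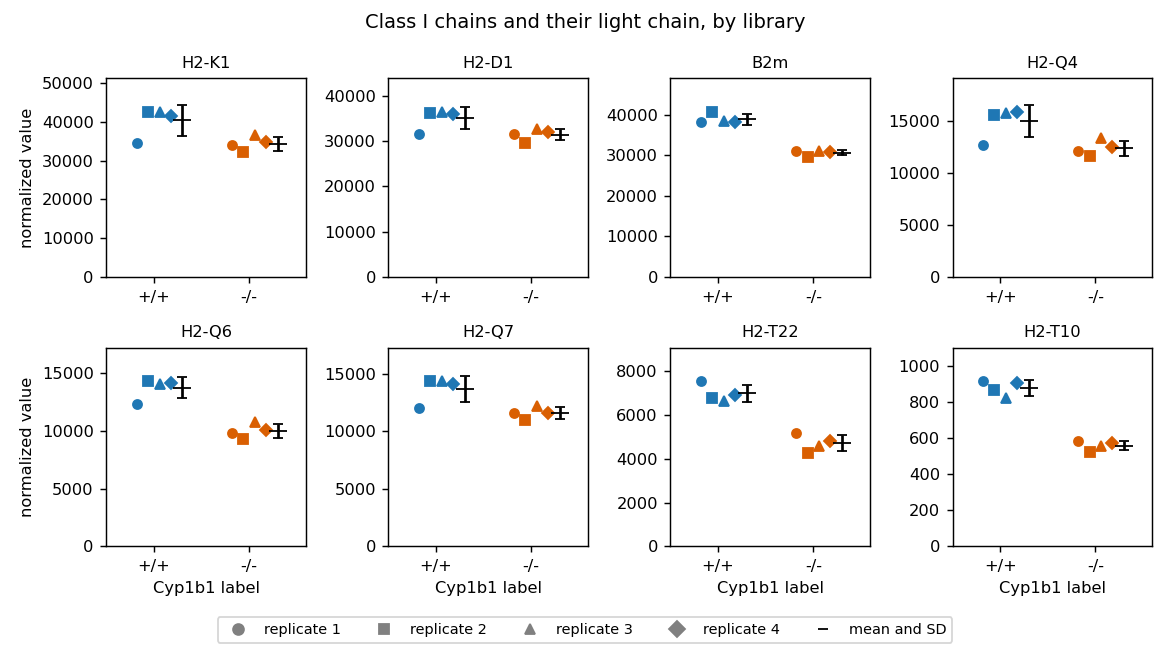
Normalized value in each library for the classical chains, B2m and the nonclassical chains of higher value. Each panel starts at 0 and shows the 4 Cyp1b1+/+ libraries in blue and the 4 libraries labelled Cyp1b1-/- in orange, one marker shape per replicate number, with the group mean and SD in black. Replicate 1 of Cyp1b1+/+ (circle) lies low in H2-K1, H2-D1 and the Q genes, at 34493 in H2-K1, and high in H2-T22, at 7564.

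Peptide transport and loading fell as well, with 6 of 8 genes (75%) lower, against 26.9% of all genes. The 2 exceptions were Tap1 and Tapbpl. Tap1 and Tap2 together form the peptide transporter. Tap2 had values of 4445, 5209, 5152 and 5029 in Cyp1b1+/+, against 3684, 3481, 4095 and 4125 for the label Cyp1b1-/-. The groups did not overlap, and Tap2 fell by 0.37 ± 0.07 on the log2 scale (adjusted p = 0.000937). Tap1 had 8920, 10764, 10911 and 10464 against 9217, 8763, 9995 and 9783, with replicate 1 of Cyp1b1+/+ below 3 of the 4 other libraries (-0.12 ± 0.07, adjusted p = 0.16). Without Cyp1b1+/+ replicate 1 the fall of Tap1 passed the test (-0.18, adjusted p = 0.00886). The ratio of Tap1 to Tap2 was 2.01 to 2.12 in Cyp1b1+/+ against 2.37 to 2.52 for the label Cyp1b1-/-, with no overlap.

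Tapbp, or tapasin, bridges the transporter and the heavy chain, and Tapbpl, its relative, edits peptides outside that complex. The values of Tapbp were 10105, 12654, 12228 and 11944 in Cyp1b1+/+, against 9516, 8789, 10260 and 9618 for the label Cyp1b1-/-. Replicate 1 of Cyp1b1+/+ lay within the other group, and Tapbp fell by 0.29 ± 0.07 on the log2 scale (adjusted p = 0.00542). Tapbpl went the other way, with 919 to 1004 in Cyp1b1+/+ against 1054 to 1237, with no overlap (0.28 ± 0.05, adjusted p = 0.00105). The ratio of Tapbpl to Tapbp was 0.0752 to 0.0937 in Cyp1b1+/+ against 0.12 to 0.125 for the label Cyp1b1-/-.

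Calr and Pdia3, loading factors that serve many other glycoproteins too, had the largest falls of these 8 genes. Calr, calreticulin, ranged from 23693 to 26997 in Cyp1b1+/+ and from 16221 to 18451 for the label Cyp1b1-/-, and fell by 32.9% (-0.57 ± 0.05, adjusted p = 8.50e-06). Pdia3, the disulfide isomerase ERp57, ranged from 15069 to 17002 and from 10498 to 12729, and fell by 29.8% (-0.51 ± 0.06, adjusted p = 5.19e-05). Neither gene overlapped between groups. Canx, calnexin, which holds the heavy chain before B2m binds, fell by 9.78% (-0.15, adjusted p = 0.0216), a call lost without Cyp1b1+/+ replicate 2 or 3 or replicate 1 labelled Cyp1b1-/-. Erap1, which trims peptides in the endoplasmic reticulum, fell by 13.1% (-0.20, adjusted p = 0.00765). Other endoplasmic reticulum chaperones and quality control genes moved with them: 9 of 16 (56.25%) in the table fell, against 26.9% of all genes. In limma 0 rose (1, Ero1l, at an unadjusted p under 0.05), against 26.8% of all genes. The median log2 fold change was -0.22, led by Tmed9 (-0.52), P4hb (-0.56), Pdia6 (-0.50) and Bcap31 (-0.25).

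The interferon-inducible proteasome went up. Of its 5 genes 4 (80%) rose and 0 fell (also 0 at an unadjusted p under 0.05), against 26.8% and 26.9% of all genes. Psmb10, the inducible counterpart of Psmb7, had values of 3114, 3170, 2907 and 2973 in Cyp1b1+/+, against 3609, 3499, 3513 and 3764 for the label Cyp1b1-/-. The groups did not overlap, and Psmb10 rose 1.18-fold (0.24 ± 0.04, adjusted p = 0.00038). Psmb9, the counterpart of Psmb6, had 2532, 2593, 2483 and 2458 against 2736, 2582, 2763 and 2785, and rose by a log2 fold change of 0.11 ± 0.03 (adjusted p = 0.0194). Its groups overlapped through replicate 2 labelled Cyp1b1-/-. Psmb8, the counterpart of Psmb5, had 5976, 5810, 5679 and 5932 against 6226, 5806, 6064 and 5994 and did not pass the test (0.04 ± 0.03, adjusted p = 0.292). The PA28 activator subunits Psme1 (3119 to 3280 against 3407 to 3819, log2 fold change 0.20, adjusted p = 0.00231) and Psme2 (4133 to 4885 against 4688 to 5020, 0.14, adjusted p = 0.0309) both rose. The calls of Psmb9 and Psme2 were lost when columns were scaled to equal totals (adjusted p = 0.107 and 0.0769), which left 2 of the 5 higher, as did leaving out Cyp1b1+/+ replicate 3 or 4 or replicate 4 labelled Cyp1b1-/-.

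Each inducible subunit replaces a constitutive one, and the ratios within a library show the balance. Psmb10 over Psmb7 was 0.947 to 1.04 in Cyp1b1+/+ against 1.11 to 1.25 for the label Cyp1b1-/-, with no overlap. Psmb8 over Psmb5 was 3.66 to 3.77 against 3.56 to 4.17 and Psmb9 over Psmb6 had means of 1.18 ± 0.08 (SD, n = 4) against 1.15 ± 0.11, and both overlapped. Of 35 constitutive genes of the core, the cap and its helpers, 18 (51.4%) rose and 5 (14.3%) fell. Over all genes 26.8% rose and 26.9% fell. Their median log2 fold change was 0.11, led by Psmd8 (-0.35), Psma6 (0.46), Psmd7 (0.29) and Psma3 (0.20) by p. Of 11 cytosolic peptidases 3 (27.3%) rose and 4 (36.4%) fell, near the shares of all genes.

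**Figure D3:**
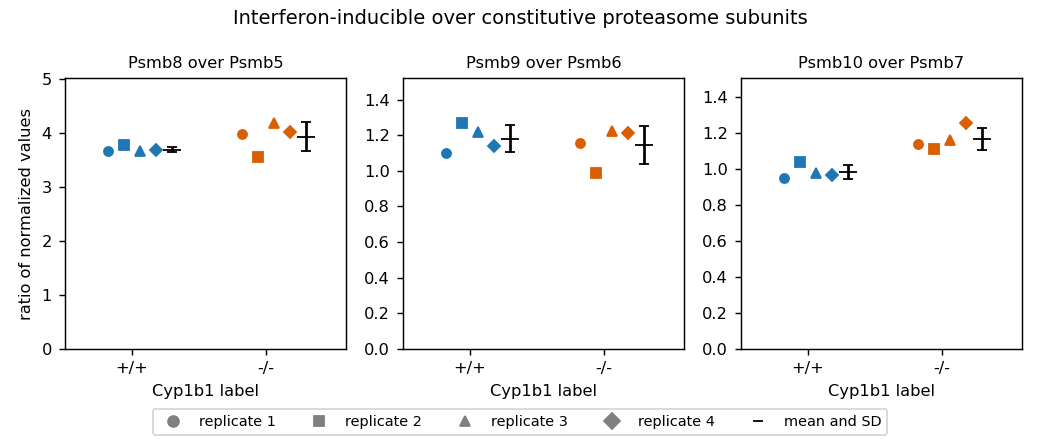
Ratio of the normalized value of each interferon-inducible proteasome subunit to that of the constitutive subunit it replaces, in each library, with axes from 0. Blue marks Cyp1b1+/+ and orange the libraries labelled Cyp1b1-/-, marker shapes give the replicate number and black bars the mean and SD. The groups are apart for Psmb10 over Psmb7, at 0.947 to 1.04 against 1.11 to 1.25, and overlap in the other ratios.

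Both transactivators rose. Nlrc5, the transactivator of class I genes, had values of 8397, 8949, 9238 and 9139 in Cyp1b1+/+, against 10018, 9432, 10600 and 10148 for the label Cyp1b1-/-. The groups did not overlap, and Nlrc5 rose 1.13-fold (0.17 ± 0.04, adjusted p = 0.00809). Ciita, the master regulator of class II genes, ranged from 519 to 603 and from 678 to 811, and rose 1.31-fold (0.39 ± 0.06, adjusted p = 0.000612). Among 19 genes of factors that act on MHC promoters 7 (36.8%) rose and 5 (26.3%) fell, with a median of -0.02. Over all genes 26.8% rose and 26.9% fell. Those of the 19 with the smallest p were Nfyb (0.62), Irf1 (0.30), Creb1 (0.31) and Ezh2 (0.21).

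Class II genes were expressed in both groups and split in direction. H2-Aa and H2-Eb1, an α and a β chain of different class II molecules, rose, and H2-Ab1, the partner of H2-Aa, did not pass the test. H2-Aa ranged from 1204 to 1257 in Cyp1b1+/+ and from 1455 to 1747 for the label Cyp1b1-/- (0.38 ± 0.05, adjusted p = 0.000222). H2-Eb1 ranged from 1054 to 1199 and from 1275 to 1399 (0.28 ± 0.05, adjusted p = 0.000763), and neither gene overlapped between groups. H2-Ab1 had 1324 to 1639 against 1414 to 1591 (-0.02 ± 0.06, adjusted p = 0.813). Cd74, the invariant chain that guides class II molecules to endosomes, had 6558, 7532, 6901 and 6686 in Cyp1b1+/+, against 6712, 6279, 7072 and 6568 for the label Cyp1b1-/-, which overlapped almost wholly (-0.05 ± 0.05, adjusted p = 0.382). The peptide editor DM went down, with H2-DMa at 424 to 498 against 340 to 395 (-0.30 ± 0.07, adjusted p = 0.00348) and H2-DMb1 at 1389 to 1553 against 1240 to 1361 (-0.14 ± 0.05, adjusted p = 0.0253). The call of H2-DMb1 was lost without Cyp1b1+/+ replicate 2 or replicate 1 labelled Cyp1b1-/-. Of 9 endosomal genes of class II processing 5 (55.6%) fell and 1 (11.1%) rose, against 26.9% and 26.8% of all genes. The thiol reductase Ifi30 (-0.96) and the proteases Ctsl (-0.84), Lgmn (-0.46) and Ctsd (-0.33) had the smallest p. The ratio of H2-Aa to H2-K1 was 0.0289 to 0.0363 in Cyp1b1+/+ against 0.0451 to 0.0490 for the label Cyp1b1-/-.

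**Figure D4:**
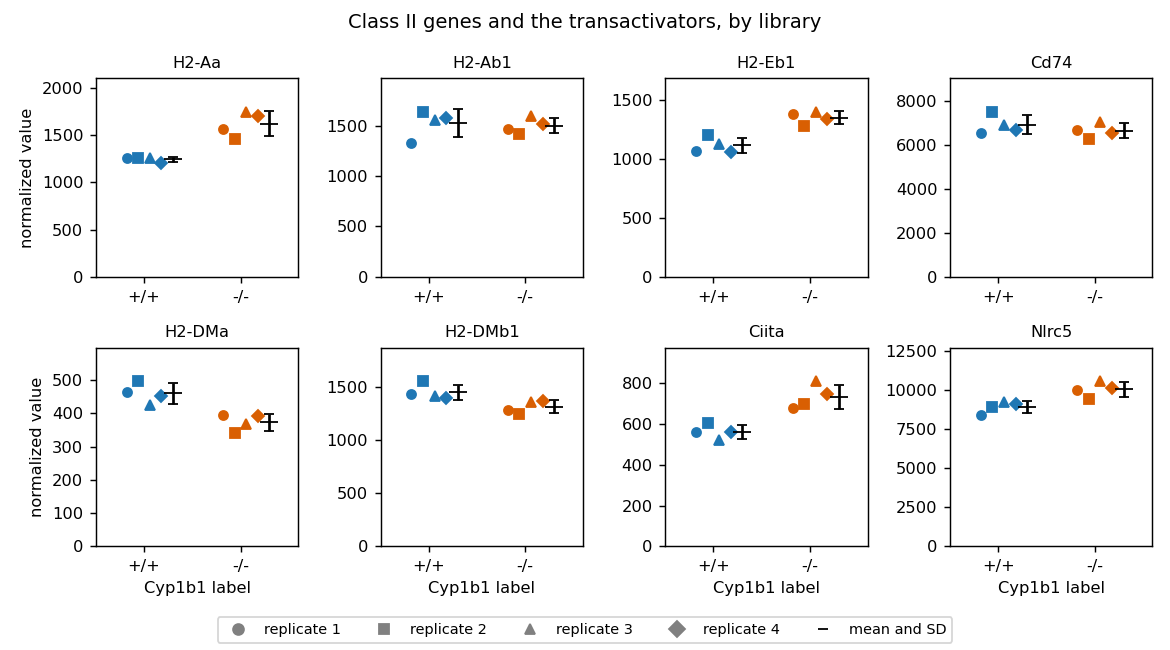
Normalized value in each library for the class II chains, Cd74, the DM genes and the transactivators Ciita and Nlrc5. Panels start at 0, with Cyp1b1+/+ in blue, libraries labelled Cyp1b1-/- in orange, a marker shape per replicate number and the mean and SD in black. H2-Aa, H2-Eb1, Ciita and Nlrc5 lie higher on the right of their panels, H2-DMa and H2-DMb1 lower, and H2-Ab1 and Cd74 overlap.

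Cd80 was the only member called with a change of more than 2-fold. Cd80, or B7-1, the ligand of CD28 and CTLA-4 on T cells, had values of 73, 73, 80 and 81 in Cyp1b1+/+, against 4, 8, 9 and 5 for the label Cyp1b1-/-. The groups were far apart, and Cd80 was 11.8-fold lower by its means (log2 fold change -3.43 ± 0.25, adjusted p = 1.71e-06), on values that were low throughout. Csf1r, a microglia and macrophage marker, moved in the same direction, from a range of 32 to 37 to a range of 7 to 15, and the 2 of 17 markers of these cells that were in the table summed to 75 to 96 against 39 to 52. Ptprc, Cx3cr1 and Aif1 were not in the table used here, and the part of such cells in the result was not tested. The checkpoint ligand Cd274, or PD-L1, went up, with 2041 to 2135 against 2283 to 2553 (0.22 ± 0.04, adjusted p = 0.000914), with no overlap. Cd276, or B7-H3, had 868 to 960 against 747 to 932 (-0.18 ± 0.07, adjusted p = 0.048), and its call was lost in 8 of the 14 alternatives. Among 10 other ligands of this kind in the table, 2 (20%) rose and 6 (60%) fell, against 26.8% and 26.9% of all genes. They were led by Lgals9 (-1.68), the adhesion ligand Icam1 (-2.16), Pvr (-0.90) and Nectin2 (-0.94). Of 10 class I-like genes outside the H2 complex, which include NKG2D ligands, 6 (60%) fell and 0 rose (also 0 at an unadjusted p under 0.05). The falls were led by Procr (-1.19), Raet1d (-1.71), Mill2 (-2.43) and Fcgrt (-0.74).

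**Figure D5:**
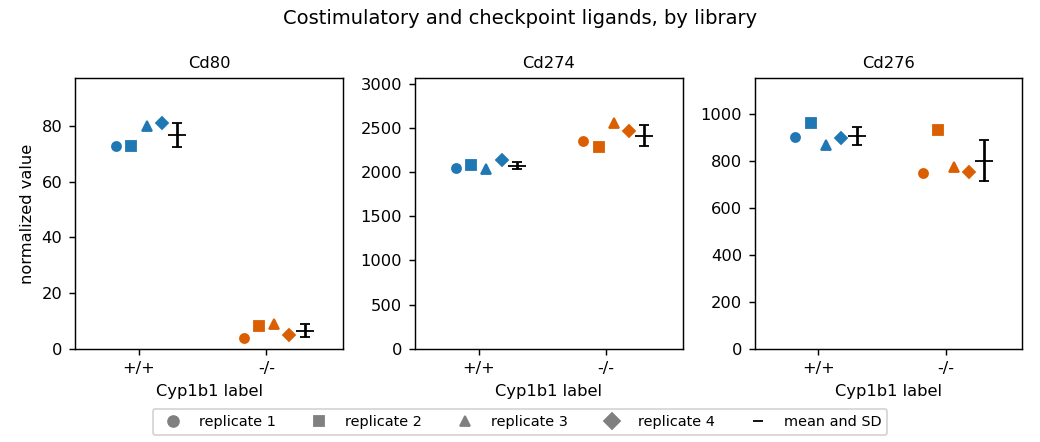
Normalized value of Cd80, Cd274 and Cd276 in each library, with axes from 0, Cyp1b1+/+ in blue, libraries labelled Cyp1b1-/- in orange, a marker shape per replicate number and the mean and SD in black. Cd80 lies at 73 to 81 against 4 to 9, Cd274 is higher on the right, and replicate 2 labelled Cyp1b1-/- brings the groups of Cd276 into overlap at 932.

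The interferon pathway upstream was mixed. Of 20 genes of receptors and signalling 7 (35%) rose and 6 (30%) fell, with a median log2 fold change of 0.02. Over all genes 26.8% rose and 26.9% fell, so these shares were near the background. Those with the smallest p were Irf7 (-0.69), the receptor chains Ifnar1 (-0.39) and Ifngr2 (-0.65), and Irf1 (0.30). Other targets of interferon-γ, the GTPases of the Gbp and Irg families and chemokines, mostly went up: 14 of 20 (70%) rose and 2 (10%) fell. Their median was 0.23, against -0.27 for the class I chains and B2m. Tgtp1 (1.59), Gbp4 (0.96), Cxcl10 (-0.79) and Cxcl11 (2.79) had the smallest p. The pathway lists were chosen with earlier results of these data known.

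By position, 25 members lay on chromosome 17 between 33915899 and 37274484, 42.4 Mb from Cyp1b1 at 79701537 to 79715061 on the same chromosome, and 15 lay elsewhere. Of the 25, 14 (56%) fell and 3 (12%) rose, and of the 15 others 7 (46.7%) fell and 7 (46.7%) rose. Over all genes 26.9% were called lower and 26.8% higher. The 93 other genes of the table between the first and the last of these 25 gave 18 lower (19.4%) and 15 higher (16.1%). Their median log2 fold change was -0.01, against -0.16 for the 25. Of all other genes on chromosome 17, 25.6% were lower and 20.5% higher.

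Single libraries lay low for many members at once. Cyp1b1+/+ replicate 1 was the lowest of its group for 21 of the 40 members, against 33.3% of all genes, and lay at a median of -0.11 (log2) from its group over the members. Replicate 2 labelled Cyp1b1-/- was the lowest of its group for 28 of 40, against 37.9% of all genes, at a median of -0.11. Leaving out the former left 21 members lower and 10 higher, and leaving out the latter left the same counts.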

How the data were processed

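RNA-seq libraries of cultured retinal astrocytes, 4 of each genotype label, were grouped by that label. Per the submitters' processing notes and the study's methods, the authors converted reads with bcl2fastq 2.20, aligned them with STAR 2.5.3a to GRCm38.p6, counted genes with RSEM (version not given in the sources used here), left out low-abundance genes and scaled the counts by TMM with edgeR 3.28.0. The score used here, as deposited by the authors, is this TMM-normalized count rounded to a whole number. The raw depth of single libraries is therefore not known. Whether counting used strand is not given in the sources used here, so overlapping and antisense genes (Tap1 with Psmb9, Psmb8 with an overlapping gene) cannot be separated. The authors' own comparison columns (fold changes, mean abundance, likelihood ratios, p-values and a status) were not used.

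Values were compared on log2 of the value plus a pseudocount of 1 with limma 3.58.1 (R 4.3.3), with a mean-variance trend and no covariate, and p-values were adjusted over all 13575 genes by Benjamini and Hochberg with a threshold of 0.05. The script was tested on simulated data, and a pass limit of that test was loosened after its first result, with the model unchanged. Alternatives were pseudocounts of 0.1 and 0.5, rescaling by median ratios, equal column totals, a replicate block, a filter of at least 10 in all libraries, and each of the 8 libraries left out in turn. Levels per kilobase use merged exons of GENCODE M21. Ratios and sums of members are descriptions without a test. Members and lists were chosen with earlier results of these data known, and roles were partly reassigned after values were seen (H2-K2, H2-T-ps, Ciita and H2-Ke6). Every member is accounted for. Values per library are given for members called over 2-fold, the classical chains, B2m, the inducible proteasome subunits, Tap1, Tap2, Tapbp, Nlrc5 and Cd74, and of each other list at most the 4 genes with the smallest p are named, apart from cell type markers.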

Additional observations from a re-analysis of the deposited data

Results flagged for a closer look

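Within a group of 4 libraries, 10 member values lay apart, with a gap to the nearest library that exceeded Dixon's limit at the 95% level as a share of the group's range. By chance about 1 in 20 groups is flagged. In Cyp1b1+/+ 8 of the 40 members were flagged, against 6.77% of all genes, and in the libraries labelled Cyp1b1-/- 2 of 40, against 9.25%. Of the 8, 5 were low values of class I heavy chains in Cyp1b1+/+ replicate 1: H2-K1 at 34493, H2-D1 at 31591, H2-Q4 at 12650, H2-Q6 at 12386 and H2-Q7 at 12027. These 5 genes are related and their flags fall in the same library, so they cannot be counted as separate events. H2-Q6 and H2-Q7 share 10.1% and 11.9% of their 100-base stretches with other members. In H2-K1, H2-D1 and H2-Q4 this share was 0.957% to 2.97%. The others in Cyp1b1+/+ were B2m at 40828 in replicate 2 and, in replicate 4, H2-Aa at 1204 and H2-Ke6 at 112. In the libraries labelled Cyp1b1-/- replicate 2 was high for H2-K2, at 50, and for Cd276, at 932.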

How the results depend on the processing

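Of the 31 called members, 22 (8 higher and 14 lower) passed the test in every one of the 14 alternatives that kept them, and 9 lost it in at least one: Canx, Cd276, H2-D1, H2-DMb1, H2-K1, H2-Q10, H2-T24, Psmb9 and Psme2. With each library left out in turn, 8 to 10 members were higher, 14 to 21 lower, 0 higher and 1 lower by over 2-fold, and the median log2 fold change of the members was -0.18 to -0.12. Equal column totals gave 8 higher and 21 lower, and median ratios 10 and 20. With a minimum of 10 in every sample, 0 members were lower by over 2-fold, because Cd80 was then not tested. H2-Ab1, which was not called, changed sign without Cyp1b1+/+ replicate 2 (0.017) and without replicate 2 labelled Cyp1b1-/- (0.0074), with values of -0.085 to 0.017 over all libraries left out. The replicate numbers share only a number: the correlations of deviations between same-numbered libraries were -0.02 to -0.0045, and 0 of the 4 Cyp1b1+/+ libraries correlated best with their own number. With the replicate block, 10 members were higher and 20 lower, and H2-DMb1 was not called (adjusted p = 0.0608). The raw depth of single libraries is not known, which limits what can be said of low values such as those of Cd80 and H2-K2.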
